A study of Oryza sativa Japonica Group with 4 samples.

Results

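NAC067, NAC068 and NAC071 are 3 rice genes that encode NAC transcription factors, listed as LOC4342753, LOC4327485 and LOC4349963 in the gene table and also known as OsNAC3, OsNAC4 and OsNAC5. They were taken as all probe sets that the annotation of the GeneChip Rice Genome Array assigns to one of these genes alone, matched by symbol or synonym, which gave 5 of the 57258 probe sets and 3 of the 17905 annotated genes. NAC067 and NAC068 have 1 probe set each and NAC071 has 3. The genes were selected on their intensities in this very comparison, which were already known to be higher with glutamate on these arrays, so the difference between the groups is described for them and not tested.

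The arrays held root RNA from Oryza sativa ssp. Japonica cv. TNG67 seedlings. Seedlings of both groups had germinated for 3 days in the dark and spent 2 weeks in nitrogen-free hydroponic solution, so that the controls were nitrogen-starved too. At 17 days of age they were moved for 30 min to the same solution with 2.5 mM glutamate (+Glu) or without it (−N). There were 2 biological replicates per group and 4 arrays in all, and the values of a group are given with replicate 1 before replicate 2. Whole roots were used, and in such bulk RNA a change in the number of cells of a type and a change in RNA per cell cannot be told apart.

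NAC proteins form a large family of plant transcription factors that share a conserved DNA-binding domain near the N-terminus and differ in the C-terminal region, through which many of them activate transcription. In rice a subgroup of the family is best known for stress responses. OsNAC5 is induced by drought, salt, abscisic acid (ABA) and jasmonate and improves stress tolerance when it is overexpressed. OsNAC4 promotes hypersensitive cell death upon recognition of a pathogen, and OsNAC3 has been studied in drought and salt responses. OsNAC6, also called SNAC2 and listed here as NAC048, is another well-known stress factor of the same subgroup.

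The expression of all 3 genes was higher in +Glu roots, but by a different pattern over the arrays. By its brightest probe set NAC071 (OsNAC5) had close replicates in both groups and a clear gap between the groups. In its dimmer probe sets the +Glu replicates were less close. NAC067 (OsNAC3) and NAC068 (OsNAC4) had −N replicates that lay further apart than their +Glu replicates, with the wider gap in NAC068. The size of their difference depended most on which −N array was used.

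NAC071 was measured at an intensity of 2711 and 2522 in the +Glu roots, against 1143 and 1355 in the −N roots, by its brightest probe set (Os.4385.1.S1_at). The 2 groups were well separated, with the lower +Glu array at 1.86 times the higher −N array. The mean was 2616 ± 134 in +Glu and 1249 ± 150 in −N (SD, n = 2), and the ratio of the geometric means was 2.1-fold (log2 fold change 1.07, standard error 0.22 from limma). Within the groups the replicates of this probe set differed 1.07-fold in +Glu and 1.19-fold in −N.

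The other 2 probe sets of NAC071 were designed on a single transcript record, which is not the record behind Os.4385.1.S1_at. They therefore share a target and are not independent readings of the gene. Os.51926.1.S1_x_at had intensities of 125 and 86.8 in +Glu roots, against 41.7 and 48.6 in −N roots, a 2.32-fold difference. Its suffix marks probes that can also bind other transcripts. The dimmer Os.51926.1.S1_at was at 34.2 and 20.9 in +Glu, against 15.4 and 16.2 in −N, 1.70-fold higher. Both groups stayed apart in each of these probe sets, but here the +Glu replicates were the less close pair. +Glu replicate 1 exceeded +Glu replicate 2 by 1.44-fold in Os.51926.1.S1_x_at and by 1.63-fold in Os.51926.1.S1_at, whereas both arrays nearly coincided in Os.4385.1.S1_at. The array medians were 19.3 and 23.9 in +Glu and 20.1 and 23.9 in −N. Os.51926.1.S1_at was above the median in +Glu replicate 1 only and below it on every other array. The deposited table has no detection calls, so whether this dim probe set was above background on each array is not known.

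NAC067 had intensities of 602 and 675 in the +Glu roots, against 454 and 276 in the −N roots. The +Glu arrays were both higher, and the nearest pair of arrays from the 2 groups was 1.33-fold apart. The means were 638 ± 51.2 in +Glu and 365 ± 125 in −N (SD, n = 2), and the ratio of the geometric means was 1.80-fold (log2 fold change 0.85, standard error 0.30). The +Glu replicates differed 1.12-fold and the −N replicates 1.64-fold.

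NAC068 was at 212 and 297 in the +Glu roots, against 203 and 83.3 in the −N roots. The higher −N array, replicate 1, almost reached the lower +Glu array, which was 1.05-fold above it. The low −N array was replicate 2, as it was for NAC067. The means were 255 ± 60.1 in +Glu and 143 ± 84.5 in −N (SD, n = 2), with a ratio of the geometric means of 1.93-fold (log2 fold change 0.95, standard error 0.46). A gap between the −N replicates as wide as the 2.43-fold of NAC068 was seen in 4.75% of the 24790 probe sets with a mean log2 intensity of at least 5, and one as wide as that of NAC067 in 21.6%. For the brightest probe set of NAC071 the figure was 64.8%. The same share for the gap between the +Glu replicates was 64.4% for NAC067, 17.0% for NAC068 and 77.2% for that NAC071 probe set. It was only 13.7% for Os.51926.1.S1_x_at of NAC071. For the dim Os.51926.1.S1_at it was 10.7% of all probe sets.

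**Figure D1:**
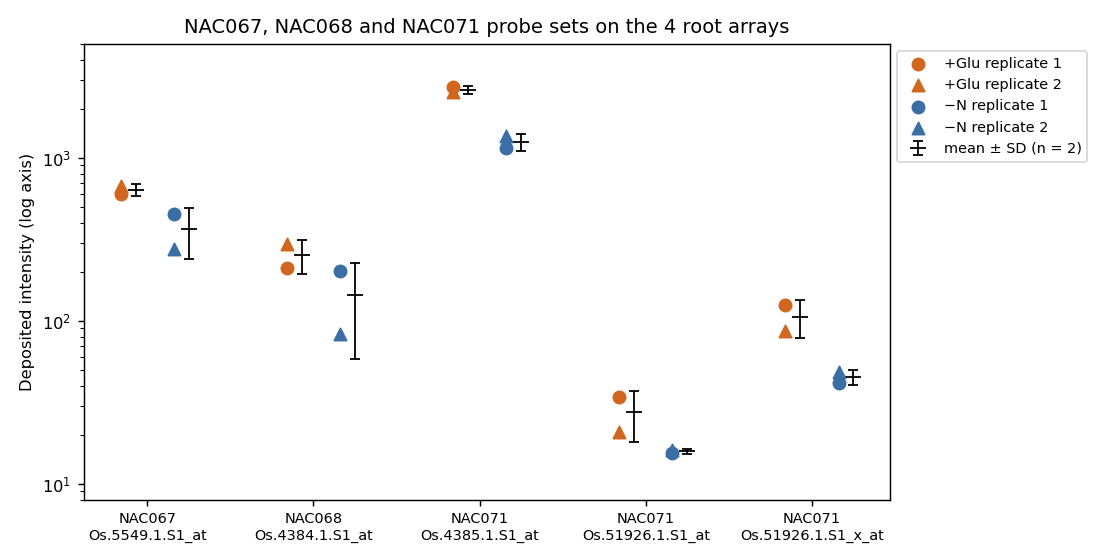
Deposited intensity (log axis) of each probe set of NAC067, NAC068 and NAC071 on the 4 root arrays, with +Glu in orange left of −N in blue, circles for replicate 1, triangles for replicate 2, and the mean ± SD (n = 2) beside each group. Os.4385.1.S1_at of NAC071 lies at 2711 and 2522 in +Glu and at 1143 and 1355 in −N, whereas −N replicate 1 of NAC068 (203) nearly meets +Glu replicate 1 (212).

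Both +Glu arrays exceeded both −N arrays in all 5 probe sets, an order seen in 10.3% of all 57258 probe sets. A fold change of at least 2 was reached by 2 of the 5, both of NAC071, and by 1.11% of all probe sets. As the genes were picked with these values known, nothing can be read from either count. The fold changes of the 5 probe sets ranged from 1.70 to 2.32, and the share of all probe sets with a log2 fold change as large ranged from 0.728% for Os.51926.1.S1_x_at to 2.00% for Os.51926.1.S1_at. After Benjamini-Hochberg adjustment over all probe sets limma called 0% of the table, or 0 of the 57258 probe sets, while at an unadjusted p under 0.05 it had 2.21% higher and 0.353% lower.

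The probe sets depended on single arrays to different degrees, also within NAC071. With 2 arrays per group, each of these ranges restates the wider gap between replicates of the probe set and is no separate result. With the arrays left out in turn the fold change of Os.4385.1.S1_at of NAC071 stayed between 1.93 and 2.29. That of NAC067 was 2.31-fold without −N replicate 1 and 1.40-fold without −N replicate 2. For NAC068 it was 3.01-fold without −N replicate 1 and 1.24-fold without −N replicate 2. The probe set Os.51926.1.S1_at of NAC071 turned on the +Glu arrays instead, with 1.33-fold without +Glu replicate 1 and 2.17-fold without +Glu replicate 2, and Os.51926.1.S1_x_at ranged from 1.93-fold to 2.78-fold. After quantile normalization the groups overlapped for NAC068, whose lower +Glu array was at 7.79 and whose higher −N array was at 7.86 on the log2 scale; the other 4 probe sets kept both +Glu arrays on top.

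**Figure D2:**
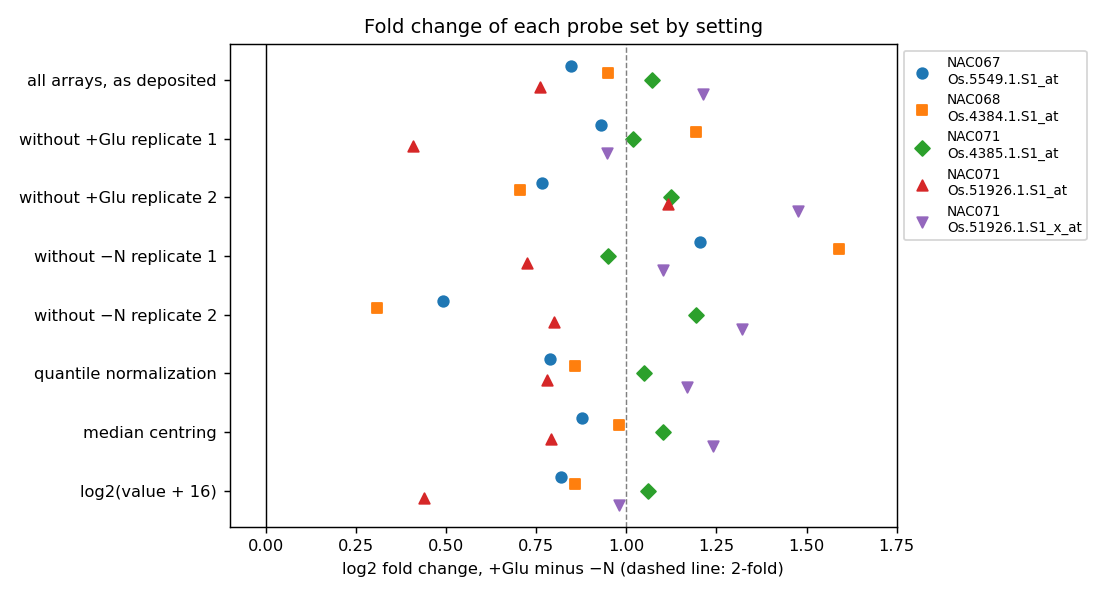
Log2 fold change (+Glu minus −N, horizontal axis) of the 5 probe sets with all arrays, with each array left out in turn, and with the values normalized or offset differently. The brightest NAC071 probe set (green diamonds) stays between 0.95 and 1.19, while NAC068 (orange squares) runs from 0.31 without −N replicate 2 to 1.59 without −N replicate 1.

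The 2 −N arrays also differed from each other outside the NAC genes. A 2-fold gap or more separated the +Glu replicates in 1874 probe sets and the −N replicates in 4136. Arrays of the same number were closer across the groups, with such a gap in 1066 probe sets between +Glu and −N replicate 1 and in 1338 between +Glu and −N replicate 2. The control probe sets for the 3′ and 5′ ends of the GAPDH transcript gave a 3′/5′ ratio of 6.38 and 4.18 in +Glu replicates 1 and 2, and of 7.28 and 4.07 in −N replicates 1 and 2, so that the arrays numbered 1 had the higher ratio in both groups. For actin the ratio was 2.47 and 2.34 in +Glu, and 2.97 and 2.39 in −N. Of 12 root marker genes that were listed, 8 were measured, and their summed intensity was 11938 and 14389 in +Glu, against 10637 and 17596 in −N. Of 13 leaf markers 4 were measured, with sums of 12493 and 10980 in +Glu and of 9599 and 13664 in −N. For none of these 12 measured markers did the groups separate, and for both lists −N replicate 1 was the lowest and −N replicate 2 the highest array. LSI1, the silicon influx transporter of root cells, was at 7831 and 8863 in +Glu and at 7085 and 9275 in −N. The leaf list was not silent, since CAB2R, which encodes a chlorophyll-binding protein, was at 10641 and 9106 in +Glu and at 8748 and 10778 in −N. These 2 bright genes make up much of the sums. Other markers varied more: the nitrate transporter gene NRT2.3 was at 236 and 340 in +Glu and at 327 and 1177 in −N, and the silicon efflux transporter gene LSI2 at 563 and 679 in +Glu and at 626 and 1303 in −N. RBCS, the Rubisco small subunit gene of the leaf list, was at 665 and 821 in +Glu and at 310 and 1193 in −N, with a 3.85-fold gap between the −N replicates. No measured marker was at 0, but no probe set was, since the lowest value on the arrays was 3.15, in −N replicate 1. The root marker SCR1 was dim, at 12.0 and 8.74 in +Glu and at 12.0 and 10.1 in −N, under the median of each array. The part of RNA quality or tissue composition in the spread of NAC067 and NAC068 was not tested.

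The gene table holds 10 genes whose symbol or synonym contains NAC with a number, a small part of the family. Of these, 8 were measured, and NAC074 and NAC077 had no probe set assigned to them alone. With 1 probe set per gene, the one with the highest mean, both +Glu arrays exceeded both −N arrays in 5 of the 8 and lay under them in 1, against 14.9% above and 10.1% below over all 17905 genes. The 3 genes described above are among the 5 and were picked for this order. Of the remaining 5 genes, 2 had both +Glu arrays on top and 1 had both below. None (0) of these 5 was at least 2-fold different with an unadjusted p under 0.05 in limma, where 1.70% of all genes were higher and 0.0447% lower, and 0 had an unadjusted or adjusted p under 0.05. The share at an unadjusted p under 0.05 over all genes was 3.86% higher and 0.380% lower, and 0% by the adjusted p. These 5 had a median log2 fold change of 0.10, against 0.026 over all genes, and all 8 together one of 0.61.

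NAC045, studied for drought and salt tolerance in rice, came next in size after the 3 genes. It was at 241 and 412 in the +Glu roots, against 165 and 237 in the −N roots, a 1.59-fold difference whose 95% interval on the log2 scale ran from −0.20 to 1.54 (unadjusted p = 0.107 from limma). The lower +Glu array was barely above the higher −N array. Leaving out +Glu replicate 1 gave 2.08-fold, and leaving out −N replicate 2 gave 1.91-fold. The difference was 1.22-fold without +Glu replicate 2 and 1.33-fold without −N replicate 1, so its size depended on which array was left out. Compared within a replicate number, +Glu was higher in both, at 241 against 165 and at 412 against 237. The interval and p given above come from the fit that ignores the replicate number. NAC076, known as OsNAC7 and placed among the NAC factors of secondary wall formation, was at 57.2 and 36.3 in +Glu, against 34.6 and 27.7 in −N (1.47-fold, unadjusted p = 0.118 from limma). Its other probe set, at 8.12 and 8.90 in +Glu and at 6.54 and 7.00 in −N, lay below the median of each array.

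The remaining NAC genes had fold changes near 1. NAC004, known as OsNAC2 or OsTIL1 and linked to tillering, was at 478 and 550 in +Glu, against 415 and 549 in −N (1.07-fold, 95% interval of the log2 fold change −0.52 to 0.72). NAC010 was dim throughout, at 6.65 and 8.72 in +Glu and 7.58 and 6.93 in −N (1.05-fold). NAC048 (OsNAC6), the other stress factor, had by its brightest probe set signals of 782 and 992 in +Glu, against 992 and 1026 in −N. Its +Glu arrays were thus both lower, the second only just, and the fold change was 0.873 (95% interval of the log2 fold change −0.78 to 0.38, unadjusted p = 0.434 from limma).

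**Figure D3:**
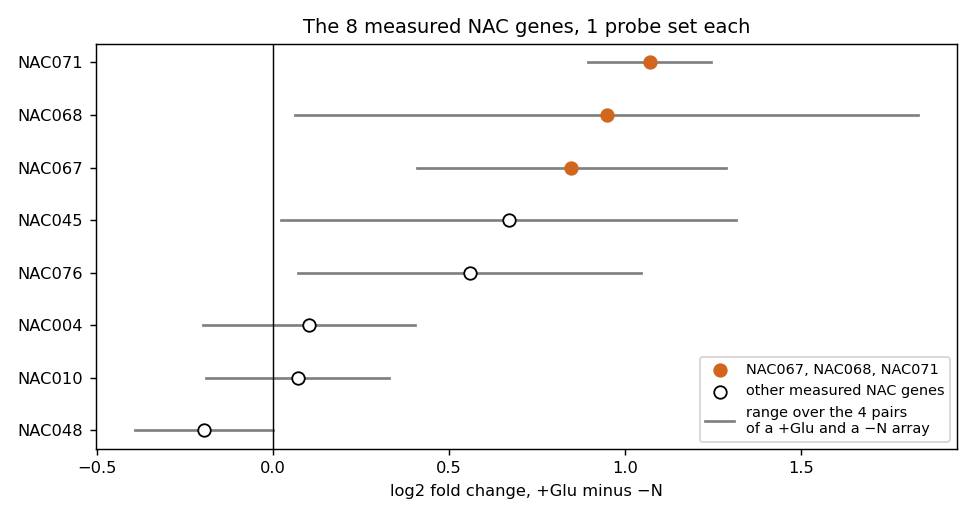
Log2 fold change (+Glu minus −N, horizontal axis) of the 8 measured NAC genes, each by its brightest probe set, with NAC067, NAC068 and NAC071 in orange and the others in white. Grey lines span the 4 pairs of a +Glu and a −N array, and that of NAC071 is the shortest among the 3 orange genes, whereas NAC048 is the only gene with a fold change below 1.

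Stress NAC factors of rice are known to act in the response to ABA and dehydration, so genes of that response were examined as a separate list. Of 41 names listed 21 genes were found in the gene table and 20 were measured: 10 SnRK2-type kinases (SAPK1 to SAPK10), 2 bZIP factors and 8 late products such as LEA proteins and dehydrins. The ABA synthesis gene NCED3 was found but had no probe set of its own. At the 2-fold thresholds 0 of the 20 passed in either direction, against 1.70% higher and 0.0447% lower over all genes. Both +Glu arrays exceeded both −N arrays in 5 and lay under them in 3, against 14.9% and 10.1% of all genes. The median log2 fold change was 0.13, against 0.026 over all genes. Of the 20, 2 had an unadjusted p under 0.05 in limma, both late products with higher values in +Glu, against 3.86% higher and 0.380% lower over all genes, and 0 an adjusted p under 0.05.

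Both of these were dehydrins. RAB21 was at 33.1 and 24.9 in +Glu roots, against 16.30 and 16.04 in −N roots (log2 fold change 0.83, unadjusted p = 0.0161 and adjusted p = 1 from limma). RAB16B was at 17.2 and 17.7 in +Glu, against 10.1 and 10.1 in −N (log2 fold change 0.79, unadjusted p = 0.0106, adjusted p = 1). Both are dim, at or below the array medians in −N. The brighter dehydrin gene DHN1 had intensities of 2993 and 3481 in +Glu, against 1629 and 2617 in −N (log2 fold change 0.64, unadjusted p = 0.0784). LEA3, a late embryogenesis abundant gene to whose promoter OsNAC5 has been shown to bind, had overlapping groups, at 70.6 and 102 in +Glu and at 50.0 and 111 in −N (log2 fold change 0.19). SALT, a lectin gene induced by salt and the lowest of the late products, was at 531 and 696 in +Glu and at 599 and 563 in −N. Among the kinases SAPK2 was highest, at 1390 and 1700 in +Glu, against 881 and 1388 in −N (log2 fold change 0.47, unadjusted p = 0.168), and SAPK1 was lowest, at 575 and 592 in +Glu, against 608 and 761 in −N (log2 fold change −0.22, unadjusted p = 0.376). The ABA-responsive factor TRAB1 was lower in both +Glu arrays, at 362 and 393 against 430 and 486 in −N (log2 fold change −0.28, unadjusted p = 0.252), whereas the groups overlapped for BZIP23, at 1040 and 1311 in +Glu and at 797 and 1267 in −N.

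Over the 4 arrays NAC067 and NAC068 had similar profiles, lowest in −N replicate 2 and highest in +Glu replicate 2, while that of NAC071 was lowest in −N replicate 1. With the log2 values of each gene centred on their mean, the Euclidean distance was 0.47 between NAC067 and NAC068, 0.74 between NAC067 and NAC071 and 1.17 between NAC068 and NAC071. Another 295 of the 17905 genes lay nearer to NAC067 than NAC068 did, and 1139 lay nearer than NAC071 did. The genes most like each of the 3 were therefore looked up among the genes with a name, as a description over 4 arrays.

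Nearest to NAC071 were the sugar transporter gene OsSWEET4 (distance 0.14), the Bax inhibitor gene BI-1 (0.19), whose product suppresses cell death, and the GRAS family gene CIGR2 (0.22), which responds to chitin elicitor and gibberellin. OsSWEET4 had intensities of 933 and 970 in +Glu, against 415 and 461 in −N, and BI-1 was at 3563 and 3774 in +Glu, against 1637 and 2131 in −N. CIGR2 was at 934 and 995 in +Glu, against 408 and 563 in −N. In all of them both +Glu arrays were well above both −N arrays, as in NAC071, which follows from their choice by profile. The −N replicates of BI-1 and CIGR2 were less close than those of OsSWEET4.

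NAC067 was nearest to the nucleoredoxin gene OsNrx1-2 (distance 0.086), to ALD1 (0.10), an aminotransferase gene known from Arabidopsis defence, and to the jasmonate repressor gene JAZ12 (0.15). OsNrx1-2 was at 2446 and 2931 in +Glu, against 1905 and 1210 in −N, and ALD1 at 95.7 and 105 in +Glu, against 66.7 and 40.5 in −N. JAZ12 was at 1993 and 2084 in +Glu, against 1617 and 954 in −N. Each of them had its lowest value in −N replicate 2, which again follows from the choice by profile. NAC068 was nearest to ERG1 (0.14), a gene induced by fungal elicitor, to the heat shock factor gene HSF10 (0.32) and to the gene listed as OsPHT3 (0.32). ERG1 was at 431 and 567 in +Glu, against 379 and 176 in −N, and HSF10 at 254 and 289 in +Glu, against 223 and 110 in −N. OsPHT3 was at 484 and 769 in +Glu, against 412 and 162 in −N. Chosen in the same way, these genes share a −N replicate 2 that stands below the other 3 arrays. A distance of at most 0.2 was found for 28 genes around NAC067, 10 around NAC071 and 4 around NAC068. This distance depends on the size of the differences between arrays as well as on their order. The counts therefore do not show how common each order is.

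**Figure D4:**
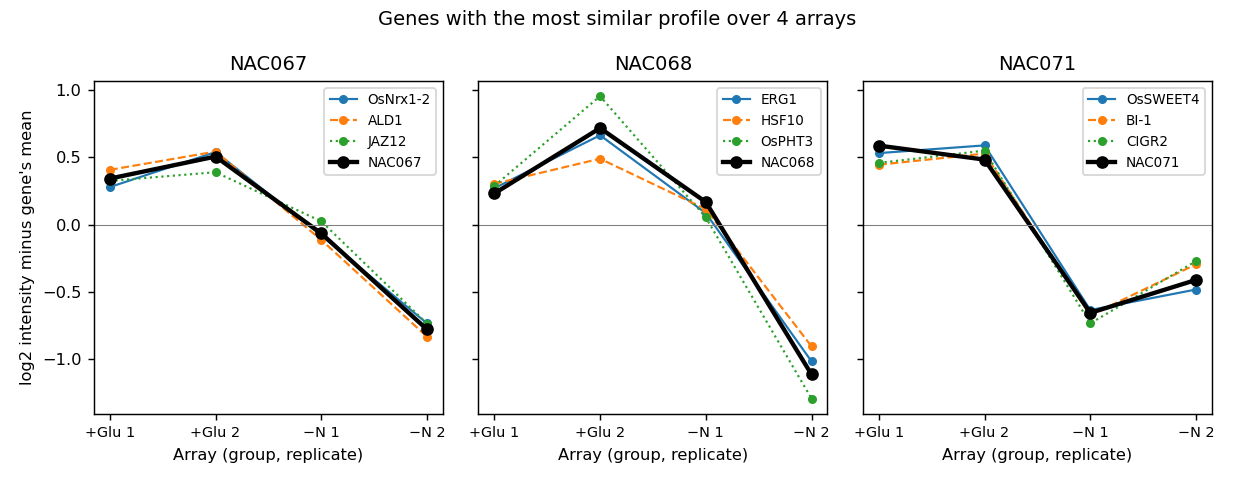
Log2 intensity minus the mean of each gene (vertical axis) on the 4 arrays for NAC067, NAC068 and NAC071 (black) and the 3 named genes nearest to each (coloured). The NAC071 group splits by treatment, while the NAC067 and NAC068 groups drop most in −N replicate 2 and have −N replicate 1 between it and the +Glu arrays.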

How the data were processed

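Root RNA from 4 samples, 2 per group, was hybridized to the GeneChip Rice Genome Array. The values deposited by the authors are linear intensities, 1 for each probe set on each array. GCOS and RMA appear in the submitters' processing notes. Their versions, order and settings are not given here, since the sources do not state them. For arrays the number of arrays limits the precision. After 123 Affymetrix controls were left out, log2 was taken without a pseudocount or filter, and +Glu minus −N was fitted over 57258 probe sets with limma 3.58.1 in R 4.3.3 (lmFit, eBayes, no block, two-sided), with Benjamini-Hochberg adjustment over all of them and a threshold of 0.05. The study's 2-fold cutoff and p limit were taken as a fold change of at least 2 with an unadjusted p under 0.05. For each gene the probe set with the highest mean was used, among 22436 probe sets assigned to 1 gene, and gene counts come from the same fit. All 17905 genes were matched by identifier to the gene table of assembly ASM3414082v1, which gives 2458 of them a name other than a placeholder. The script was tested on simulated data.

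The genes and lists were chosen with earlier results of these data known. The genes named were all probe sets of the 3 genes, the 8 measured NAC genes, the highest and lowest member of each role in the ABA list with further late products named after their values were seen, and the 3 nearest profiles among 2458 named genes. The NAC family was to be defined by protein similarity; it was defined by gene name instead, and sequences were not analysed here. NAC90 of the study was not matched by name.

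Alternatives were a replicate block, each array left out in turn, quantile normalization, median centring, a mean log2 of at least 5, a pseudocount of 16, probe sets without a suffix for shared probes only, a gene as the mean of its probe sets and, added after seeing the data, the NAC family without the 3 genes. Figures were drawn with matplotlib 3.10.9.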

Additional observations from a re-analysis of the deposited data

How the results depend on the processing

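The log2 fold change of each of the 5 probe sets stayed above 0 under every alternative run, 10 each for NAC067, NAC068 and Os.4385.1.S1_at and 9 each for the dimmer NAC071 probe sets, of which one was dropped by the limit on dim values and one as a probe set with shared probes. The groups did not overlap, so leaving out an array could not turn the sign. With 2 arrays per group it also cannot move a fold change past the pooled spread between replicates (on the log2 scale 0.37 for NAC067, 0.69 for NAC068 and 0.13 for Os.4385.1.S1_at), so neither is a sign of stability. The number of probe sets with both +Glu arrays on top was 5, or 4 after quantile normalization, where the groups of NAC068 overlapped, and 4 under each of the settings that dropped 1 probe set. When single arrays were left out, the 8 NAC genes had a median log2 fold change that ranged from 0.35 (without −N replicate 2) to 0.60. In the settings that kept all arrays, 0 of the 8 passed the 2-fold thresholds downward. As the 8 include the 3 genes selected for higher values, nothing can be read from this count or this median. Without NAC067, NAC068 and NAC071 the family median ranged from 0.0010 to 0.33 over the alternatives. Of the other 5 genes, 0 passed the 2-fold thresholds in the settings that kept all arrays. NAC045 had a log2 fold change of 1.06 without +Glu replicate 1.

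Over all probe sets the 2-fold thresholds were passed by 551 upward and 25 downward. Dropping −N replicate 1 gave 942 and 513, dropping −N replicate 2 gave 1090 and 428, and dropping +Glu replicate 2 gave 343 and 90. The counts were 450 and 40 after quantile normalization and 311 and 10 with the pseudocount. At an adjusted p under 0.05 limma called 575 probe sets in the first of these fits and 352 in the second, which take the spread of the single −N array from the +Glu pair, and 0 under the other alternatives. The cause was not tested. Arrays of the same number deviated together (correlation 0.55 over probe sets), but the labels do not say that a number marks a shared batch. With the replicate number as a block the fold changes of the 3 genes were the same by construction (NAC071 1.07, NAC067 0.85 and NAC068 0.95 on the log2 scale), the median of the 8 NAC genes was 0.61, and the counts over all probe sets were 609 and 52. The definition of the family by protein similarity was not run.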
